A study of Mus musculus with 2 samples.

Results

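Cells that carried transcripts of *Pdgfra* or *Sox10*, the markers by which oligodendrocyte progenitor-like cells are sought, made up 840 of 12805 cells (6.56%) in cultured neurospheres of the mouse cortex. Cells were chosen by a value over 0 for either gene in the expression table, and were compared with the cells of the same culture at 0 for both. There were 677 such cells among 5748 in culture 1 (11.8%, exact 95% binomial interval 11 to 12.6) and 163 among 7057 in culture 2 (2.31%, interval 1.97 to 2.69). They are called *Pdgfra*/*Sox10*-positive cells here. Because the values of these 2 genes made the choice, those values are described and not tested. Intervals throughout cover counting error only.

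Oligodendrocyte progenitors are dividing glial precursors that give rise to the myelinating cells of the central nervous system. They sense PDGF through the receptor encoded by *Pdgfra*, and their fate is held by the transcription factors Olig2 and Sox10, with the proteoglycan NG2, encoded by *Cspg4*, on their surface. Sox10 stays on as the cells commit and switch on myelin genes, while *Pdgfra* is turned off at that step. In the embryonic forebrain the first of these progenitors arise ventrally and later ones dorsally.

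The samples were 2 cultures of neurospheres, balls of neural stem and progenitor cells that grow in suspension, from the dorsal telencephalon of wild-type C57BL/6 mice at embryonic day 14.5. Both were grown in EGF and bFGF at 10 ng/ml each, in medium with B27 and N2 supplements and no retinoic acid, and were profiled with a droplet assay that reads the 3′ end of transcripts. There was 1 condition, and the numbers name cultures and not treatments, so no test between groups was possible and no p-value is given. Median depth was 19477 UMIs per cell in culture 1 and 14637 in culture 2, and 48 cell barcodes occurred in both libraries, of which 7 belonged to positive cells.

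Most positive cells owed their place to 1 of the 2 genes. *Pdgfra* (chromosome 5, 75152292 to 75198215, plus strand, GRCm38) was over 0 in 632 cells and *Sox10* (chromosome 15, 79154908 to 79165240, minus strand) in 298. *Pdgfra* alone marked 542 cells, *Sox10* alone 208, and both together 90. In culture 1 these numbered 432, 173 and 72 cells, and in culture 2 they numbered 110, 35 and 18.

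The deposited values were normalized for depth. Multiplied back by a cell's depth, the values of a gene mostly lay in each culture near whole multiples of a step, with some below 1 step, and the step of a gene differed between cultures. For *Pdgfra* it was 0.729 in culture 1 and 2.17 in culture 2, and for *Sox10* it was 0.708 and 3.14. About 1 step of *Pdgfra* was present in 68.1% of *Pdgfra*-positive cells of culture 1 and in 71.9% of those of culture 2, and about 1 step of *Sox10* in 61.6% and 67.9% of *Sox10*-positive cells. The choice of most cells thus rested on about 1 step, while 5 and 7 cells had under 0.75 steps of *Pdgfra* in cultures 1 and 2 and 10 and 0 had under 0.75 steps of *Sox10*. The lowest values inside the rule were 0.137 and 0.768 for *Pdgfra* and 0.154 and 1.32 for *Sox10* in cultures 1 and 2, and every cell outside was at 0. Taking only values over 1 as detected left 5.62% of cells in culture 1 and 2.25% in culture 2.

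Since the steps differ, levels cannot be set side by side between cultures. The mean *Pdgfra* value over all cells was 0.104 in culture 1 and 0.0864 in culture 2, although 8.77% of cells were positive in the first and 1.81% in the second. The values of culture 2 were also stretched at the top. The highest *Pdgfra* value was 6.11 in culture 1 and 53.4 in culture 2, and the highest *Sox10* value was 4.41 in culture 1 and 265 in culture 2. Results below are therefore given as shares of cells and as ratios within a culture.

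The cultures differed in how often these genes were detected. *Pdgfra* was detected 4.83 times as often in culture 1 as in culture 2 and *Sox10* 5.68 times as often, where the ratio over all 10666 genes had a median of 1.26. Only 44 genes reached the ratio of *Pdgfra* and only 20 that of *Sox10*, counting each gene itself. Among genes described below, the ratio was 5.91 for *Ugt8a*, 4.71 for the neuroblast gene *Dcx*, 4.51 for *Pcdh15*, 3.99 for *Tnr*, 2.80 for *S100b* and 2.73 for *Bcas1*, but 1.06 for *Olig2* and 0.860 for *Cspg4*. With 1 culture of each number, culture, depth and library cannot be told apart here.

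Positive cells were most frequent at both ends of the depth range. In culture 1 they were 24.2% of the decile of lowest depth, 5.91% of the sixth and eighth deciles, and 17.9% of the highest. In culture 2 they were 4.11% of the lowest decile, 0.850% of the seventh and 8.22% of the highest, which alone held 58 of the 163 positive cells. The median depth of positive and other cells was 16545 and 19678 UMIs in culture 1, and 16636 and 14618.5 in culture 2. The part of depth in the differences below was not tested, and values with the other cells weighted to the depth deciles of the positive cells are given where they bear on a statement. No cell type known to lack both genes was set apart in these cultures, so the share due to free RNA was not measured separately.

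**Figure D1:**
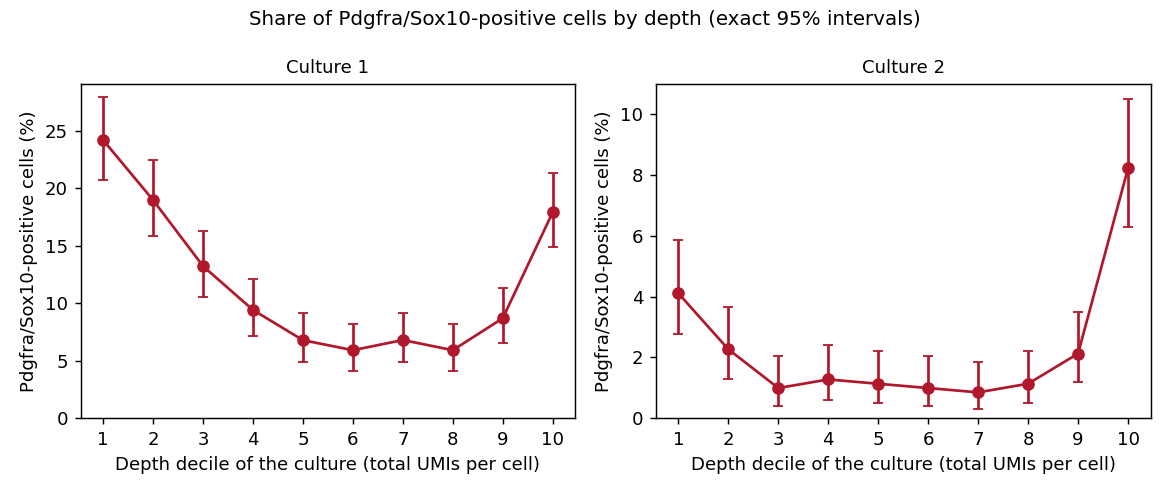
Share of cells positive for *Pdgfra* or *Sox10* (%, y axis) in each depth decile of culture 1 and culture 2 (x axis, from the lowest to the highest total UMIs per cell), with exact 95% binomial intervals. The share is high at both ends, 24.2% and 17.9% in culture 1 and 4.11% and 8.22% in culture 2, and low between them.

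Each of the 2 genes was more frequent in cells that had the other. *Sox10* was over 0 in 72 of 504 *Pdgfra*-positive cells of culture 1 (14.3%, interval 11.3 to 17.6) and in 3.30% of *Pdgfra*-negative cells, or 4.45% after weighting to depth. In culture 2 it was over 0 in 18 of 128 *Pdgfra*-positive cells (14.1%, interval 8.55 to 21.3) and in 0.505% of the negative ones, or 1.03% after weighting. Read the other way, *Pdgfra* was found in 29.4% of *Sox10*-positive cells of culture 1 and 34.0% of those of culture 2, against 7.85% and 1.57% of *Sox10*-negative cells. After weighting to depth, the *Sox10*-negative cells were at 10.2% and 3.08%. A large majority of cells positive for either gene therefore showed no transcript of the other.

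The remaining markers gave a mixed picture. *Cspg4* (chromosome 9, 56865033 to 56899870, plus strand) was over 0 in 21.7% of positive and 10.5% of other cells in culture 1, and in 28.8% and 13.4% in culture 2. Its mean value was 2.53-fold and 2.48-fold that of other cells. *Olig2* (chromosome 16, 91225457 to 91228677, plus strand) did not set the cells apart, being over 0 in 96.8% of positive and 97.3% of other cells in culture 1 and in 93.9% and 91.8% in culture 2. Its mean was 1.23-fold and 1.22-fold that of other cells, short of the fold used for a call, which is the inverse of 0.8. Of the 4 markers *Pdgfra*, *Sox10*, *Olig2* and *Cspg4*, 68.8% of positive cells in culture 1 and 60.7% in culture 2 showed exactly 2. All 4 were found in 24 and 7 cells. *Cspg4* was therefore more frequent in positive cells as a group, though found in a minority of them. *Olig2* was present in most cells of either kind and so did not distinguish them. The full set was present in few single cells.

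Genes were compared as the ratio of the mean value of positive cells to that of other cells, among 10121 genes over 0 in at least 1% of the cells of each culture. A gene was called lower when the ratio was at most 0.8 in both cultures, and higher when the inverse ratio, of other to positive cells, was at most 0.8 in both. By this rule 1258 genes were higher (12.4% of those compared) and 946 were lower (9.35%), while 330 (3.26%) passed the fold in opposite directions. The median ratio over all genes was 1.04 in culture 1, and it was 1.02 in culture 2. A call states only that both cultures passed the fold, and is not a test. Of the genes compared, 16 passed the filter only through the positive cells, and 12 of these were called higher. With the filter read in other cells alone, 1246 of 10112 genes were higher and 950 lower.

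Of 22 further oligodendrocyte progenitor genes past the filter, 15 were higher in both cultures and 0 lower, where 12.4% of all genes were higher. Their median ratio was 1.87 in culture 1 and 2.53 in culture 2. *Tnr*, the extracellular matrix glycoprotein tenascin-R (chromosome 1, 159523769 to 159931729, plus strand), was over 0 in 40.5% of positive and 10.6% of other cells in culture 1. In culture 2 its shares were 28.8% and 2.94%. Its mean was 4.95-fold and 13.7-fold that of other cells, or 3.13-fold and 10.2-fold after weighting to depth. *Pcdh15*, a protocadherin, was over 0 in 20.7% and 4.26% of positive and other cells in culture 1 and in 17.2% and 1.0% in culture 2. Its ratios were 4.33 and 21.4, or 2.66 and 14.4 after weighting to depth.

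*Lhfpl3*, a tetraspan membrane protein gene often used to mark these progenitors, was over 0 in 77.0% of positive and 37.0% of other cells in culture 1 and in 66.9% and 23.5% in culture 2. *Cntn1*, the cell adhesion molecule contactin-1, was over 0 in 75.6% against 41.1% and in 62.6% against 20.2%. *Dll3*, a divergent Notch ligand, was over 0 in 43.1% against 15.1% and in 30.1% against 11.3%, with ratios of 3.85 and 3.54, or 2.31 and 3.48 after weighting to depth. *Tmem100* had ratios of 3.26 and 11.6. The others called higher were *Rlbp1*, *Sox6*, *Vcan*, *Scrg1*, *Cacng4*, *Luzp2*, *Chd7*, *Cspg5* and *Sox8*, and those called neither way were *Nkx2-2*, *Bcan*, *Ptprz1*, *Sox5*, *Xylt1*, *Ncan* and *Ednrb*.

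**Figure D2:**
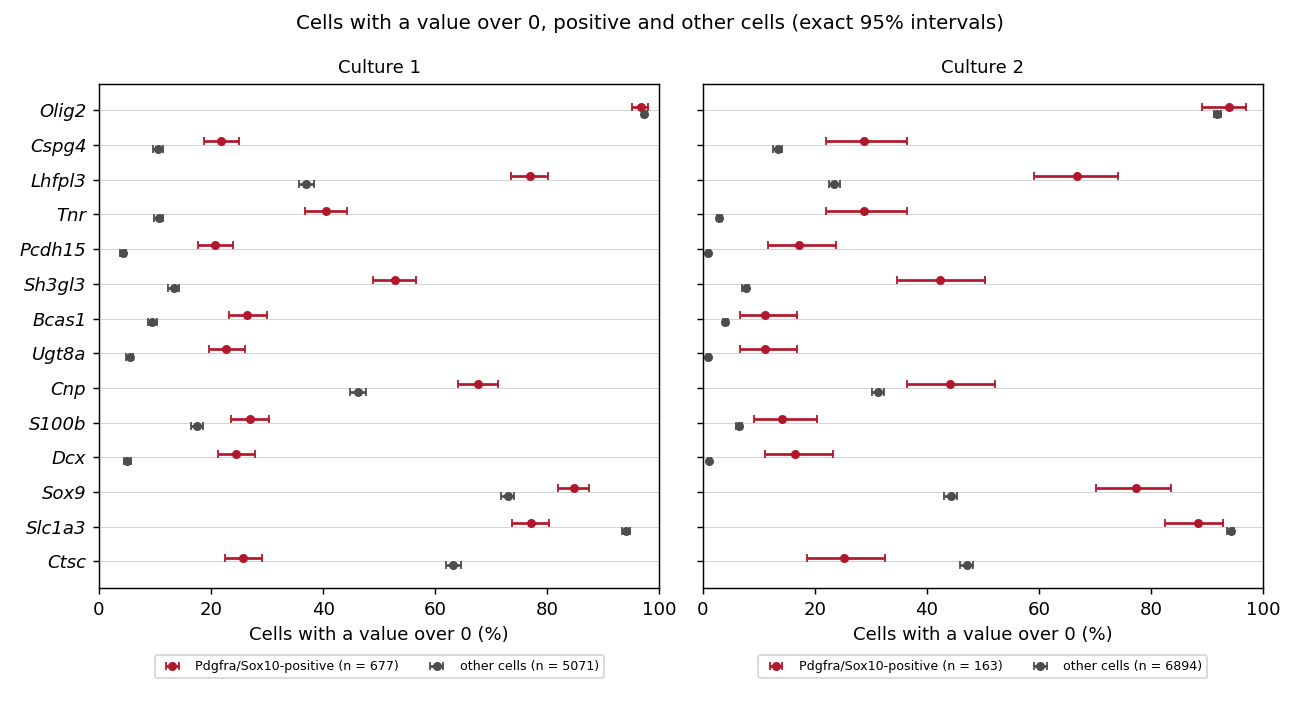
Percentage of cells with a value over 0 (x axis) for 14 genes, in *Pdgfra*/*Sox10*-positive cells (red) and other cells (grey) of culture 1 and culture 2, with exact 95% binomial intervals. *Olig2* lies above 90% in every group, the genes from *Cspg4* to *Sox9* are more frequent in positive cells of both cultures, and *Slc1a3* and *Ctsc* are less frequent.

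Genes of committed and myelinating oligodendrocytes were detected in the positive cells too. Of 9 past the filter, 6 were higher in both cultures and 1 lower, where 12.4% and 9.35% of all genes were. Their median ratios were 1.94 and 1.36. *Bcas1*, which marks newly forming oligodendrocytes (chromosome 2, 170346991 to 170427845, minus strand), ranked first among all genes by the smaller of its ratios in the 2 cultures. It was over 0 in 26.4% of positive and 9.51% of other cells in culture 1 and in 11% and 4.05% in culture 2. Its ratio was 7.09 in culture 1 and 15.2 in culture 2. A single cell held 57.9% of the summed *Bcas1* of the positive cells of culture 2, and without it the ratio was 6.42.

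*Ugt8a*, the enzyme that makes the myelin lipid galactosylceramide (chromosome 3, 125865271 to 125938619, minus strand), was over 0 in 22.7% of positive and 5.50% of other cells in culture 1. In culture 2 the shares were 11% and 1.04%. Its ratios were 5.53 and 14.6, or 3.57 and 11.5 after weighting to depth. *Cnp*, a myelin-associated phosphodiesterase, had ratios of 3.94 and 3.06, and *Sirt2*, a deacetylase abundant in myelin, 2.53 and 1.99. *Tcf7l2*, a Wnt effector of oligodendrocyte differentiation, had ratios of 1.56 and 1.36. Shares of positive and other cells hardly differed in culture 1 for *Tcf7l2*, at 49.3% and 49.3%, and *Sirt2*, at 77.3% and 75.5%. In culture 2 they were 46.0% and 36.6% for *Tcf7l2*, and 69.9% and 59.1% for *Sirt2*. *Tns3* was called at 1.94 and 1.27 but lost the call after weighting to depth, at 1.89 and 1.16. Its shares were 34.4% and 32.1% in culture 1, and 30.7% and 23.0% in culture 2. *Aspa*, the aspartoacylase of mature oligodendrocytes, was lower at 0.289 and 0.705, and lost the call without the decile of highest depth, at 0.258 and 0.844. *Itpr2* and *Fyn* were called neither way.

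The cell that carried so much *Bcas1* was also the one with the *Sox10* value of 265. It had 9678 UMIs, no *Pdgfra* and a *Bcas1* value of 207. Leaving it out lowered the culture 2 ratios of *Tubb4a* from 7.83 to 5.82, of *Cnp* from 3.06 to 2.23, of *Sirt2* from 1.99 to 1.60 and of *Tmeff2* from 4.53 to 3.49. It changed the number of genes called higher from 1258 to 1256 and lower from 946 to 938.

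In the order of the smaller of the 2 ratios, *Bcas1* was followed by *Tubb4a*, a beta-tubulin of neurons and oligodendrocytes, with ratios of 6.92 and 7.83, and *Dscaml1*, a cell adhesion molecule, with 6.33 and 18.1. *Sh3gl3*, an endophilin, was over 0 in 52.7% of positive and 13.3% of other cells in culture 1 and in 42.3% and 7.66% in culture 2. *Slc1a1*, a glutamate transporter, had ratios of 5.25 and 9.11, and *Nfasc*, the adhesion molecule neurofascin, 5.13 and 5.48. *Brinp1* had ratios of 4.91 and 15.3, but 50.7% of its sum over the positive cells of culture 2 lay in 1 cell, and without that cell the ratio was 7.57. *Phactr3* (5.90 and 6.19), *4430402I18Rik* (5.05 and 8.08), *Dixdc1* (4.81 and 5.08), *Tspan2* (6.09 and 4.62) and *Tmeff2* (4.64 and 4.53) completed the 15 ranked highest, with *Ugt8a*, *Tnr* and *Dcx*. *Dscaml1* and *Phactr3* were over 0 in only 0.740% and 0.899% of other cells of culture 2 and passed the filter there through the positive cells, so their ranks are not independent of the choice of cells. After weighting to depth, the culture 1 ratios of *Dscaml1*, *Sh3gl3*, *Phactr3*, *Slc1a1*, *4430402I18Rik* and *Brinp1* were 3.89, 3.68, 3.62, 3.29, 3.05 and 2.78. That of *Dscaml1* in culture 2 was 11.1.

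*Dcx*, the microtubule-associated doublecortin of migrating neuroblasts (chromosome X, 143855842 to 143933311, minus strand), was over 0 in 24.4% of positive and 5.07% of other cells in culture 1, and in 16.6% and 1.20% in culture 2. Its ratio was 4.77 and 10.7, or 2.77 and 7.68 after weighting to depth. Of 6 neuroblast and neuron genes past the filter, 4 were higher and 0 lower, where 12.4% and 9.35% of all genes were. Their median ratios were 1.48 and 1.84. *Elavl3*, a neuronal RNA-binding protein, was over 0 in 42.7% against 29.1% of cells in culture 1 and in 65.6% against 39.0% in culture 2. *Elavl4* had ratios of 1.46 and 2.36 and *Map2* 1.51 and 1.54. The positive cells held 39.1% of the 422 *Dcx*-positive cells of culture 1 and 24.5% of the 110 of culture 2. Whether neuronal genes and those of the oligodendrocyte lineage lay in the same cells or in doublets was not tested.

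**Figure D3:**
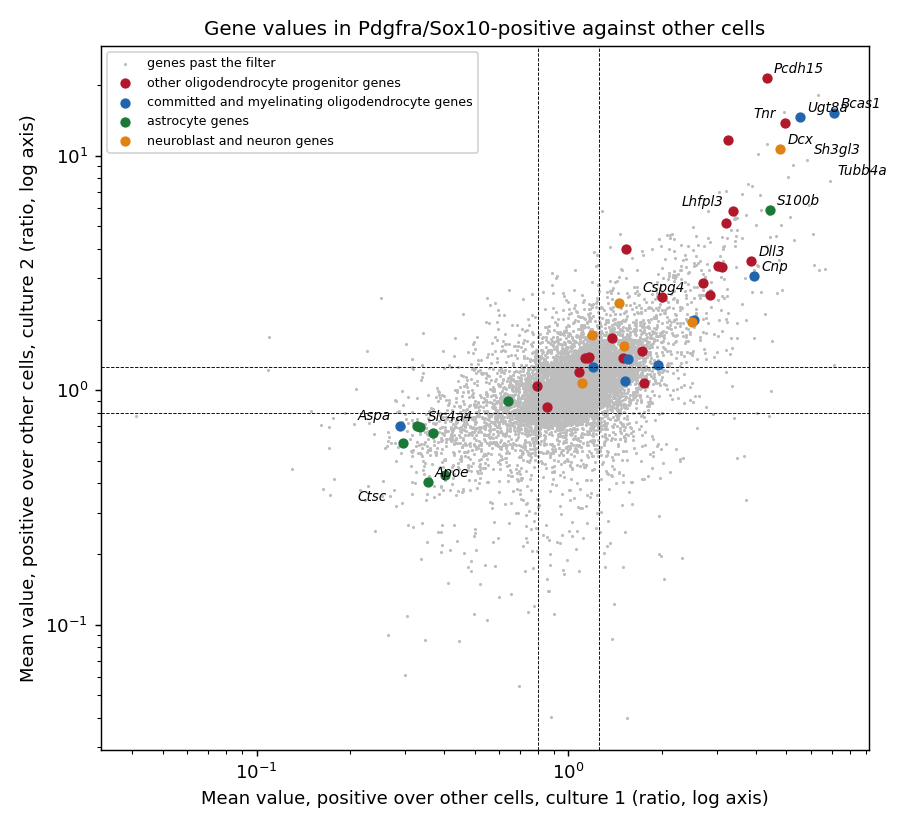
Ratio of the mean value of *Pdgfra*/*Sox10*-positive to other cells in culture 1 (x axis) and culture 2 (y axis), both on log axes, for genes past the filter that were over 0 in positive cells of both cultures. Dashed lines mark 0.8 and its inverse. Most oligodendrocyte progenitor genes (red) lie at the upper right, while 6 of 8 astrocyte genes (green) lie at the lower left and *S100b* at the upper right.

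Most astrocyte genes were lower in the positive cells. Of 8 past the filter, 6 were lower in both cultures, against a background of 9.35% of all genes, while *S100b* was higher and *Slc1a2*, a glutamate transporter, was called neither way at 0.642 and 0.900. Their median ratio was 0.360 in culture 1 and 0.677 in culture 2, so the difference was larger in culture 1. *Apoe*, a lipid carrier secreted by astroglia, had ratios of 0.354 and 0.405, and *Sparcl1* 0.403 and 0.435. *Gja1*, the gap junction protein connexin 43, had 0.294 and 0.592, the bicarbonate transporter gene *Slc4a4* 0.335 and 0.699, and *Aldh1l1*, a folate enzyme, 0.327 and 0.702. In culture 2 the shares of cells with *Aldh1l1* hardly differed, at 28.2% of positive and 28.8% of other cells, where culture 1 had 20.7% and 46.2%. The shares of *Apoe* were 41.7% and 40.5% in culture 2, where culture 1 had 46.7% and 75.7%. Those of *Fgfr3* (7.36% and 8.15%) and *Gja1* (14.1% and 16.8%) were also close in culture 2. *Sparcl1* (20.2% and 26.1%) and *Slc4a4* (39.3% and 45.4%) lay further apart there.

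*S100b*, a calcium-binding protein that both astrocytes and oligodendrocyte-lineage cells make (chromosome 10, 76253853 to 76261159, plus strand), went the other way. It was over 0 in 26.9% of positive and 17.5% of other cells in culture 1, and in 14.1% and 6.47% in culture 2, with ratios of 4.42 and 5.84. Most *S100b*-positive cells were not *Pdgfra*/*Sox10*-positive, as the latter held 17.0% of the 1070 in culture 1 and 4.90% of the 469 in culture 2.

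Of 10 radial glia genes past the filter, 1 was higher and 2 were lower, where 12.4% and 9.35% of all genes were. *Sox9*, a transcription factor of neural stem cells and early glia, was over 0 in 84.8% of positive and 72.9% of other cells in culture 1 and in 77.3% and 44.3% in culture 2, with ratios of 2.31 and 3.26. *Slc1a3*, the glutamate transporter GLAST, was lower with ratios of 0.432 and 0.706, although 77.1% and 88.3% of positive cells still had it. *Hes1*, a target of Notch, had ratios of 0.419 and 0.626. The other 7 of 10, among them *Vim*, *Nes*, *Fabp7* and *Pax6*, were called neither way.

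Other lists gave few calls, to be read against the 12.4% of all genes higher and 9.35% lower. Of 11 genes for PDGF ligands and signalling partners, only *Pik3r1*, a regulatory subunit of PI3 kinase, was higher, at 2.16 and 2.46, and 0 were lower. Among 13 EGF and FGF receptors and feedback genes 3 were lower and 0 higher. *Egfr*, the receptor for the EGF in the medium, had ratios of 0.482 and 0.767, and *Fgfr3* 0.367 and 0.655. *Dusp6* had 0.589 and 0.770 and lost its call without the decile of highest depth. In the Notch list of 8, *Dll3* was higher and *Hes1* and *Lfng*, the latter a modifier of Notch receptors with ratios of 0.430 and 0.646, were lower. In the hedgehog list of 8, *Gli3* (0.470 and 0.584) and *Boc* (0.205 and 0.719) were lower, and *Hhip* (1.44 and 1.28) was higher but lost its call after weighting to depth. These calls rest on few positive cells, 24 and 9 with *Gli3*, 5 and 4 with *Boc* and 32 and 5 with *Hhip* in cultures 1 and 2. In culture 2, *Boc* was over 0 in 2.45% of positive and 2.05% of other cells.

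Regional and regulatory genes gave ratios nearer to 1. *Lhx2*, a transcription factor of the cortical primordium, was lower at 0.637 and 0.767. *Id2* was higher at 1.62 and 1.33 and *Id3* lower at 0.515 and 0.607, both being inhibitors of basic helix-loop-helix factors. *Mitf*, the sole neural crest gene, was lower at 0.722 and 0.590 and lost the call after weighting to cell-cycle position. *Fbln1*, the sole fibroblast gene, was called neither way, and *Fosb*, an immediate early gene, was lower at 0.598 and 0.765 but not after weighting to position. Markers of microglia, endothelium and pericytes were not among the genes analysed here.

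Of the 15 genes ranked lowest by the larger of their 2 ratios, the most widely detected was *Ctsc*, the lysosomal protease cathepsin C. It was over 0 in 25.7% of positive and 63.2% of other cells in culture 1 and in 25.2% and 47.1% in culture 2, with ratios of 0.279 and 0.319. *Pla2g7*, a secreted phospholipase, had ratios of 0.292 and 0.329, and *Ttpa*, which carries vitamin E, 0.338 and 0.190. *Mamdc2*, *Acsf2* and *Pltp* were each over 0 in only 1 positive cell of culture 2. *Adamts12*, *Trim47*, *D2hgdh*, *BC034090*, *Aox1* and *Gm5069* were also among the 15, each over 0 in fewer than 4% of positive cells of either culture. *Galm*, *Kcp* and *Loxl3* were at 0 in all 163 positive cells of culture 2, so no fold is given for them there.

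The cells marked by *Sox10* alone differed from those marked by *Pdgfra* alone, a comparison chosen after the values were seen. *Bcas1* was over 0 in 41.6% of *Sox10*-only and 16.9% of *Pdgfra*-only cells in culture 1, and in 31.4% and 4.55% in culture 2. *Ugt8a* was over 0 in 35.3% against 15.3%, and in 20% against 6.36%. *S100b* showed the widest gap, at 48.0% against 15% in culture 1 and 42.9% against 5.45% in culture 2. *Tnr* was over 0 in 59.5% against 28.7% and in 40.0% against 20%. The intervals of *Ugt8a* and *Tnr* overlap in culture 2, and those of *Bcas1* and *S100b* do not. *Pcdh15* went the other way, at 12.7% against 20.8% and 8.57% against 19.1%, with intervals that overlap in both cultures. For *Cspg4* the shares were 18.5% and 20.8% in culture 1 and 37.1% and 24.5% in culture 2, which did not differ beyond their intervals. Cells with both genes lay near the *Sox10*-only cells in culture 1, at 47.2% for *Bcas1*, 37.5% for *Ugt8a*, 47.2% for *S100b* and 65.3% for *Tnr*. In culture 2 the 18 cells with both genes were at 11.1%, 22.2%, 11.1% and 61.1%. High shares of these genes were therefore not particular to cells without *Pdgfra* in culture 1.

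**Figure D4:**
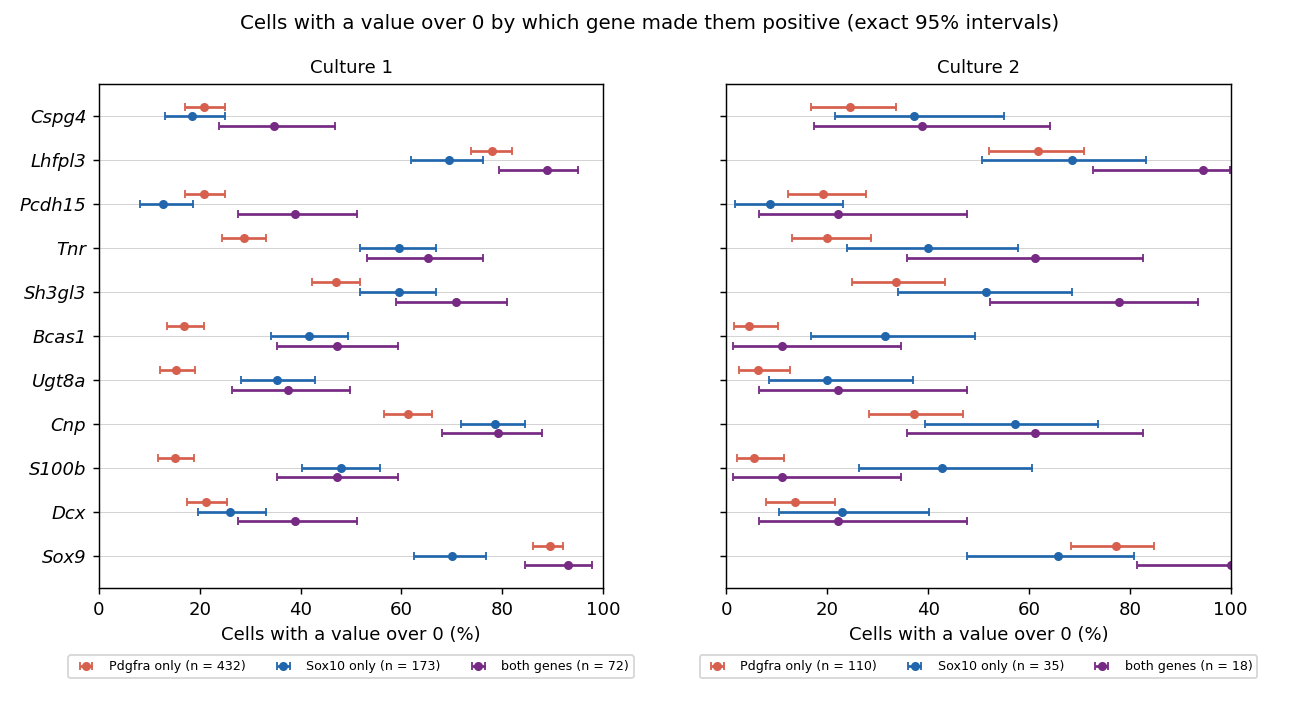
Percentage of cells with a value over 0 (x axis) for 11 genes in cells marked by *Pdgfra* only (orange), *Sox10* only (blue) or both (purple), in culture 1 and culture 2, with exact 95% binomial intervals. *Bcas1*, *Ugt8a*, *Cnp* and *S100b* are more frequent in *Sox10*-only than *Pdgfra*-only cells of both cultures, with overlapping intervals for *Ugt8a* and *Cnp* in culture 2, and the 18 cells with both genes in culture 2 have wide intervals.

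Over 8333 genes found in at least 5% of the cells of each culture, 676 were higher in *Sox10*-only than in *Pdgfra*-only cells of both cultures by the same fold (8.11%) and 543 were lower (6.52%). A further 743 (8.92%) passed the fold in opposite directions, more than either count, so calls on single genes are weak here. Culture 2 had only 35 *Sox10*-only cells. Of 6 committed and myelinating genes, 5 were higher in *Sox10*-only cells and 0 lower, namely *Cnp* (5.60 and 6.58), *Sirt2* (6.82 and 3.75), *Tns3* (5.51 and 3.44), *Itpr2* (6.17 and 2.02) and *Tcf7l2* (3.16 and 1.64). Without the cell of highest *Sox10*, the culture 2 ratios of *Cnp* and *Sirt2* were 3.68 and 2.30, and the 5 stayed past the fold. Astrocyte genes rose as well, with 4 of 8 higher and 0 lower, and median ratios of 1.46 and 1.51. They were *S100b*, *Gja1* (1.88 and 3.26), *Slc4a4* (1.68 and 1.51) and *Apoe* (1.89 and 1.51). These 4 also stayed past the fold without that cell.

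Of 17 other progenitor genes, 4 were higher in *Sox10*-only cells and 1 lower, *Scrg1* leading at 2.88 and 1.98 and *Cacng4* being lower at 0.658 and 0.732. *Sox8*, at 1.46 and 1.60, lost its call without the cell of highest *Sox10*. Of 16 S-phase genes, 10 were lower in *Sox10*-only cells and 0 higher, with median ratios of 0.668 and 0.723. The replicative helicase genes *Mcm2* (0.613 and 0.692), *Mcm3* (0.628 and 0.434), *Mcm5* (0.588 and 0.724) and *Mcm6* (0.597 and 0.745) were among them. Only 3 of 9 radial glia genes were lower and 0 higher, namely *Vim* (0.654 and 0.660), *Nes* (0.706 and 0.650) and *Hopx* (0.605 and 0.319). Among 11 genes for PDGF ligands and signalling partners, 2 were higher in *Sox10*-only cells and 1 lower. *Pdgfa*, which encodes a ligand of the receptor encoded by *Pdgfra*, was higher at 3.51 and 1.51, and the ligand gene *Pdgfc* lower at 0.689 and 0.739. *Ptpn11*, higher at 1.38 and 1.26, lost its call without the cell of highest *Sox10*. Among the 15 genes ranked highest by the smaller of their 2 ratios in this comparison were also *Mgll*, a monoacylglycerol lipase (5.96 and 4.09), and *Tmeff2* (6.34 and 15.1, or 10.7 in culture 2 without the cell of highest *Sox10*).

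Positive cells were also split, as a description only, by the values that had chosen them. Positive cells of culture 1 with about 2 or more steps of *Pdgfra* or *Sox10* numbered 223, and *Sh3gl3* was over 0 in 69.1% of them against 44.7% of the 454 cells with less. In culture 2 the shares were 70.7% of 41 cells and 32.8% of 122. *Tnr* was over 0 in 52.0% against 34.8% and in 46.3% against 23.0%, and *Dcx* in 34.5% against 19.4% and in 26.8% against 13.1%. *Ctsc* was less frequent, at 16.6% against 30.2% and 22% against 26.2%. The intervals of *Tnr*, *Dcx* and *Ctsc* overlap in culture 2. The median depths of the higher and lower cells were 16553 and 16534.5 UMIs in culture 1, and 15371 and 18294 in culture 2.

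The deposited cell-cycle position is an angle in which cells pass from 0 to 2π, with replication and division roughly in the middle of the range and G1 and resting cells towards its ends. Positive cells lay more often between 0.5π and 1.5π, at 61.3% against 48.0% of other cells in culture 1 and 43.6% against 34.8% in culture 2. The difference was 13.3 and 8.77 percentage points. Weighted to depth it was 14.1 points in culture 1 and 0.919 in culture 2, so in culture 2 little of it remained at matched depth. Depth itself differed with position, taken in 8 equal classes. Cells of the class starting at 1π had median depths of 20527 and 17813 UMIs in cultures 1 and 2. For the class starting at 1.75π the medians were 18437 and 13991. Weighting to depth can therefore also remove a difference in position, and which of these happened in culture 2 was not tested. The surplus of culture 1 lay mainly in the class that begins at 1π, the fifth of 8 equal ones, with 27.2% of positive and 17.4% of other cells. The deficit in both cultures lay between 1.75π and 2π, with 18.3% against 32.8% in culture 1 and 28.2% against 45.0% in culture 2.

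**Figure D5:**
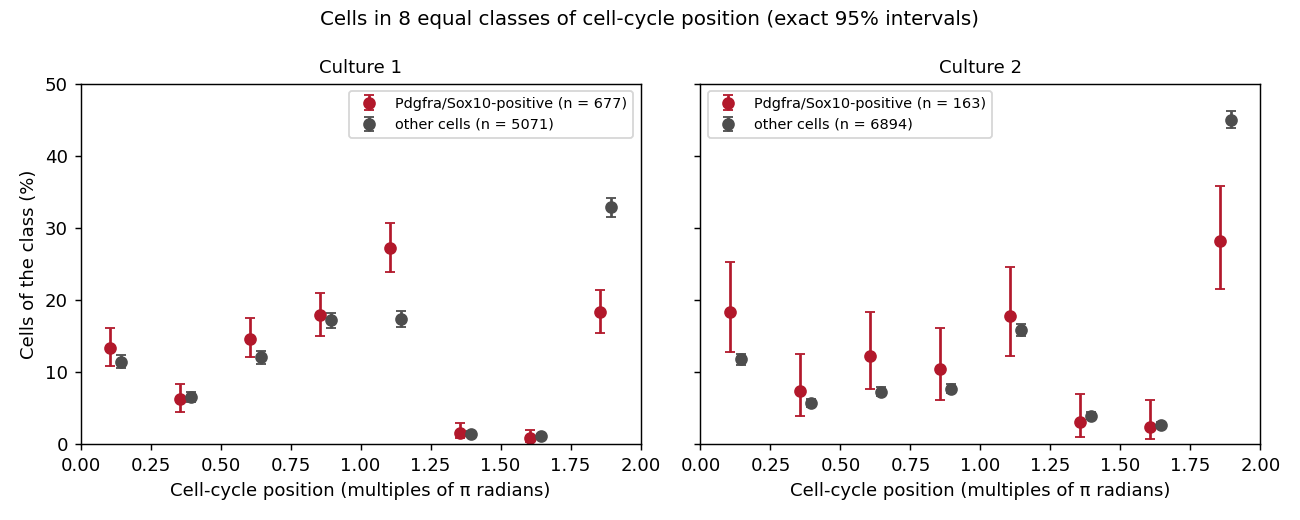
Percentage of *Pdgfra*/*Sox10*-positive cells (red) and of other cells (grey) in 8 equal classes of cell-cycle position (x axis, multiples of π radians) in culture 1 and culture 2, with exact 95% binomial intervals. In the last class positive cells are fewer, at 18.3% against 32.8% in culture 1 and 28.2% against 45.0% in culture 2.

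The circular mean position of positive cells was 0.771π in culture 1 against 0.314π for other cells, and 0.164π against 1.97π in culture 2. The shift was 0.456π and 0.192π. After weighting to depth it was 0.505π and 0.277π, larger in both cultures, unlike the surplus between 0.5π and 1.5π, which fell in culture 2. Positions were spread widely, with resultant lengths of 0.215 and 0.183 for positive cells, where 1 would mean a single position. Seen by position, 17.3% of the cells in the class that begins at 1π were positive in culture 1 and 6.93% of those between 1.75π and 2π. In culture 2 the highest share was 3.82%, between 0.5π and 0.75π, and the lowest 1.46%, between 1.75π and 2π. By the deposited Seurat stages, 38.4% of positive and 25.2% of other cells were in G2M in culture 1, and 27.6% and 23.8% in culture 2.

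Position also differed with the gene that marked the cell, though in culture 1 only. In culture 1, 67.4% of *Pdgfra*-only cells (interval 62.7 to 71.8) and 72.2% of cells with both genes lay between 0.5π and 1.5π, but 41.6% of *Sox10*-only cells (interval 34.2 to 49.3). In culture 2 the shares of *Pdgfra*-only and *Sox10*-only cells were 43.6% and 45.7% and were not distinguishable. The 18 cells with both genes were at 38.9% there (interval 17.3 to 64.3). G1 was the Seurat stage of 53.2% of *Sox10*-only and 25.7% of *Pdgfra*-only cells in culture 1, and of 51.4% and 43.6% in culture 2. The intervals of these G1 shares overlap in culture 2 (34.0 to 68.6 and 34.2 to 53.4).

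Genes of the cycle itself gave few calls between positive and other cells. Of 16 S-phase genes 0 were higher and 0 lower, with median ratios of 1.11 and 1.14, the 4 most abundant, *Rrm2*, *Pcna*, *Tipin* and *Rrm1*, lying between 0.833 and 1.22. Of 16 G2 and mitosis genes 3 were higher, where 12.4% of all genes were, namely *Cenpf* (1.68 and 1.38), *Top2a* (1.61 and 1.34) and *Birc5* (1.52 and 1.27). In culture 2 these 3 were at 1.01, 1.09 and 1.05 after weighting to depth, past no fold, and at 1.21, 1.10 and 1.12 after weighting to position, so the 3 calls were lost under either. Among G1 regulators, *Ccnd3* was higher at 1.54 and 1.60 and *Ccnd2* lower at 0.566 and 0.729, both D-type cyclins. *Cdkn1a*, the inhibitor p21, was lower at 0.584 and 0.767 and *Cdk6*, a kinase partner of D-type cyclins, higher with a ratio of 2.64 in culture 2 and just past the fold in culture 1, and both lost the call when other cells were weighted to position.

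Positive cells lay near each other in expression space. Among the 20 nearest cells of the same culture, found on 20 principal components without *Pdgfra*, *Sox10* and the cell-cycle lists, 34.4% were positive around a positive cell in culture 1 and 9.18% around another cell. In culture 2 the means were 11.7% and 1.72%. Weighting the other cells to the depth of the positive ones gave 12.5% and 2.77%. Cells with both genes had the most positive neighbours, with means of 48.2% and 22.5%. Still, 8.12% of positive cells in culture 1 and 25.8% in culture 2 had none among their 20 nearest, where 38.7% and 79.1% of other cells had none.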

How the data were processed

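Single-cell RNA-seq libraries of 2 neurosphere cultures of wild-type mouse cortex were analysed. By the study's methods and the submitters' processing notes, the authors quantified spliced transcripts with alevin (Salmon 1.3.0) against GRCm38, took out cells that were outliers in doublet score, depth, genes detected or mitochondrial share, and dropped mitochondrial and rarely detected genes. Seurat 3.2.2 is also named. The expression values deposited by the authors are a linear signal, scaled to remove each cell's depth. They hold in addition a factor that differs by gene and culture, whose origin is not given in the sources used here. Counts could not be recovered, so no count model was fitted and cells were not thinned to a common depth. The plan had assumed values comparable between cultures, and ratios were kept within a culture for this reason. Total UMIs per cell are estimated counts summed by the authors. Stages and the cell-cycle position (an angle in radians) are the authors' own. By the methods, the position is a polar angle in principal components of integrated, centred values of variable cell-cycle genes. The study names version 3 of the droplet kit where the labels give version 2. The number of per-cell columns left unmapped was 0. No further doublet caller was run.

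Cells over 0 for *Pdgfra* or *Sox10* were compared with the others of their culture by shares of cells over 0, with exact 95% binomial intervals, and by the ratio of mean values. Genes over 0 in at least 1% of the cells of each culture entered, and calls needed a ratio of at most 0.8 in both cultures, or an inverse ratio of at most 0.8 in both. A symbol was found for 10662 of 10666 genes. Coordinates come from GENCODE vM21 on GRCm38, an earlier release than the authors' own. Depth and position were handled by weighting the other cells to the 10 depth deciles or 8 position classes of the positive cells. Neighbours were found on the 2000 most variable genes. The step of a gene is the most common value after multiplication by depth.

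Genes named are the 4 markers, the 15 with the largest smaller ratio of the cultures, the 15 with the smallest larger ratio, and from each list the called genes, up to 6 by ratio, or up to 4 by level where none was called. Other genes of a list are named where its count is spelled out. Some genes that this rule names are not reported here. The cells, the gene lists and the alternatives were chosen with earlier results of these data known. The comparisons of *Sox10*-only with *Pdgfra*-only cells, the steps, detection between cultures, the overlap with *S100b* and *Dcx*, the filter read in other cells alone, and the removal of the deepest cells, of shared barcodes and of the cell with the highest *Sox10* value were chosen after values were seen, as were the genes named from them. Scripts were tested on simulated data and used Python 3.11.15, numpy 2.4.6, pandas 2.3.3, scipy 1.17.1, scikit-learn 1.9.0 and matplotlib 3.10.9.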

Additional observations from a re-analysis of the deposited data

How the results depend on the processing

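Of 82 alternative values, 63 lay within 1.5 times the reported count or within 1 SD between the cultures of the reported share or position, 18 lay further off and 1 reversed. With 2 cultures, the share or position of either alone lies within 1 SD of their mean by arithmetic. Leaving out a culture could thus only stay within that SD or reverse, and shows no stability of shares or positions. That SD was wide for the share of positive cells, which was 7.04% as the mean of the cultures, 3.94% where only values over 1 counted, 2.51% with *Sox10* alone and 0.754% with both genes. A 1.5-fold threshold gave 502 genes higher and 392 lower in positive cells, and a difference of at least 0.1 in mean log2(value + 1) gave 557 and 551. Each culture alone gave 2284 to 2470 genes higher and 1807 to 1871 lower, since a gene then has to pass in 1 culture only. Choosing cells with both genes gave 1651 lower. Of the 1258 genes higher and 946 lower, 871 and 775 kept the call after weighting to depth, and 1047 and 857 without the decile of highest depth. The mean difference in the share of cells with *Olig2* was 0.739 percentage points and ranged from -0.568 in culture 1 to 2.05 in culture 2. For *Cspg4* it was 13.3 points, or 9.10 where only values over 1 counted as detected. The mean surplus of positive cells between 0.5π and 1.5π was 11 points, falling to 7.5 after weighting to depth, 7.44 without the decile of highest depth and 4.77 with *Sox10* alone as the rule, which also lowered the shift of the circular mean from 0.324π to 0.114π. For *Sox10*-only against *Pdgfra*-only cells, each culture alone gave 1725 to 2194 genes higher and 1449 to 2247 lower. The causes of these changes were not tested. Alternatives planned for *Olig1* were not run, as it was not among the genes analysed here. Positive and other cells were paired within each of the 2 cultures, and no test was run on these pairs. The 163 positive cells of culture 2 limit the precision of its shares.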
